A study of Mus musculus with 11 samples.

Results

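The 10 genes described here, *Gata1*, *Klf1*, *Tal1*, *Gfi1b*, *Nfe2*, *Lmo2*, *Zfpm1*, *Ldb1*, *Bcl11a* and *Myb*, encode transcription factors and cofactors of red blood cell development. They were chosen by name from the 55487 genes counted, with earlier results of these data known. Their transcripts were read in the hearts of 11 mouse embryos at E14.5, at mid-gestation, 5 *Pde2A-/-* (knockout) and 6 *Pde2A+/+* (wild type), each heart a library of its own. Knockout embryos were homozygous for the tm1Dgen allele of *Pde2A*, which encodes a phosphodiesterase that degrades cAMP and cGMP, wild-type embryos lacked it, and both came from matings of heterozygous parents on a B6; 129P2 background. The allele is constitutive, so that the fetal liver and all other tissues of a knockout embryo carried it, not the heart alone. The study describes anemia, hemorrhages and a smaller liver in *Pde2A-/-* embryos at E14.5. The part of these traits in the values given here was not tested. Embryos of both sexes were used, and RNA of an isolated heart can come from its own cells and from the blood within it.

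In background terms, GATA1 is the zinc finger factor that switches on most genes of the red cell and binds GATA sequences with its cofactor FOG1, the product of *Zfpm1*. TAL1 joins GATA1 in a complex held together by LMO2 and LDB1, while KLF1 binds CACCC-type sequences at globin and other red cell genes, and GFI1B and NFE2 act further along the same path. BCL11A silences embryonic globin genes, and MYB keeps progenitors dividing and declines as they mature. At this stage new red cells are made mainly in the fetal liver and reach the heart through the circulation.

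Counts are given as CPM, which are reads on the strand of the gene per 1000000 after TMM scaling of the libraries. A gene was called when edgeR's quasi-likelihood test, fitted on 24177 genes, gave a Benjamini-Hochberg adjusted p under 0.05. The total per heart lay between 35865537 and 42835382 counts. *Pde2a* had 0 to 2 counts per heart, which does not test the genotype labels. The heart labels were checked against marker genes, and all 14 cardiomyocyte markers, among them *Ttn*, *Myl4* and *Nppa*, had a wild-type mean of at least 1 CPM. Libraries that stood apart were wild-type replicate 7, in which the 11 thymus T cell markers tested summed to 130.9 CPM against 6.47 to 9.38 CPM in all other hearts, and 4 hearts with at least 1 CPM of albumin mRNA (*Alb*). The latter were knockout D with 11.5 CPM and wild-type 11, H and E with 16.9, 15.8 and 46.6 CPM, against 0.0236 to 0.678 CPM in the other hearts. Results were therefore also computed without them.

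Of the 10 factors, 7 were higher in knockout hearts and 0 were lower, beside 8.93% of all genes tested that were called higher and 5.67% called lower. The 7 were *Gata1*, *Klf1*, *Tal1*, *Gfi1b*, *Nfe2*, *Lmo2* and *Zfpm1*, and 5 of them, all but *Lmo2* and *Zfpm1*, differed by at least 2-fold, beside 2.21% of all genes that were higher and 0.372% that were lower by this rule. In the same 7 factors every knockout heart lay above every wild-type heart, beside 5.38% of all genes, and in 0 factors every knockout heart lay below, beside 3.11% of all genes. The median log2 fold change of knockout over wild type was 0.98 over the 10 factors and -0.02 over all genes. *Ldb1*, *Bcl11a* and *Myb* were not called. Because the factors were chosen with earlier results of these data known, their counts beside all genes are a description and not a test. In RNA from whole tissue, more cells of a type and more RNA per cell cannot be told apart. The p-values measure the spread between these hearts, whose litters are not stated.

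**Figure D1:**
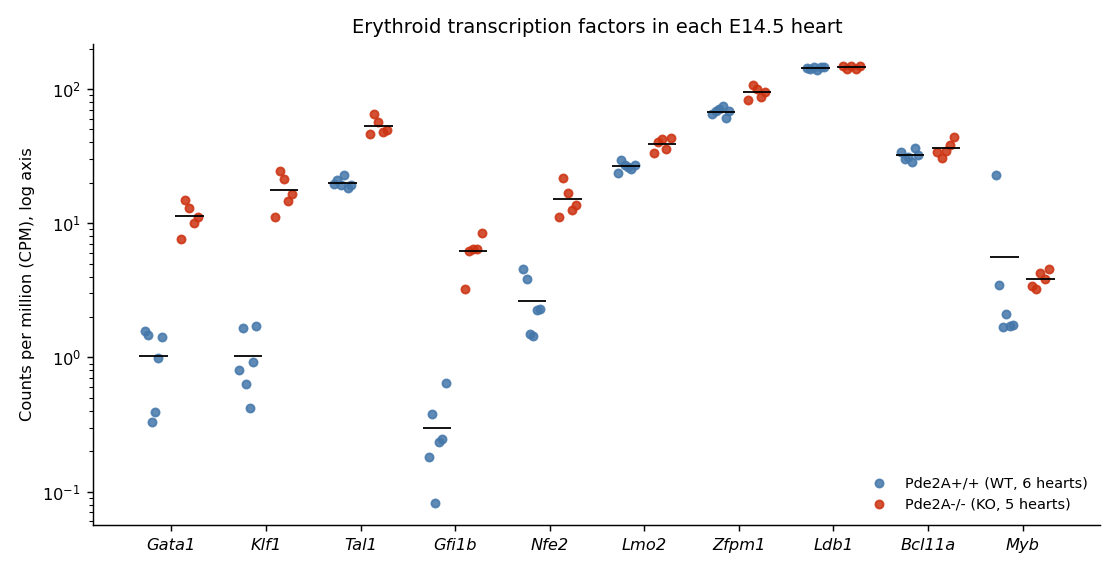
CPM (log axis) of the 10 erythroid factors in each heart, with 6 wild-type hearts in blue, 5 knockout hearts in red and the mean of each genotype as a black line. The genotypes stand fully apart for the first 7 genes, overlap for *Ldb1* and *Bcl11a*, and for *Myb* wild-type replicate 7 lies at 22.9 CPM, above all other hearts.

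The bases before the start sites are shown for *Gata1*, *Klf1*, *Gfi1b* and *Tal1*, because these factors bind GATA and CACCC-type sequences or act with factors that do, and were all called higher. Sequences are from RefSeq on GRCm38, on the strand of the gene, 5′ to 3′, up to 250 bases before the start and without any base that GENCODE M21 places in an exon. Capitals mark the GATA hexamer, which is GATA with A or T before it and A or G after it, and the CACCC-type octamer CCNCNCCC, each on either strand. They are *Gata1* at chrX:7967911-7968160 (minus strand), *Klf1* at chr8:84901732-84901927 (plus), *Gfi1b* at chr2:28621983-28622232 (minus) and the first of 2 start sites of *Tal1* at chr4:115056176-115056425 (plus).
Gata1: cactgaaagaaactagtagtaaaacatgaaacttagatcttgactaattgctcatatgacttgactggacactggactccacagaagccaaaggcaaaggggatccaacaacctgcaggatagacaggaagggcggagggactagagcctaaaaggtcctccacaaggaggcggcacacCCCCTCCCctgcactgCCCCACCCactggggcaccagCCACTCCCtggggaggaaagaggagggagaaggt
Klf1: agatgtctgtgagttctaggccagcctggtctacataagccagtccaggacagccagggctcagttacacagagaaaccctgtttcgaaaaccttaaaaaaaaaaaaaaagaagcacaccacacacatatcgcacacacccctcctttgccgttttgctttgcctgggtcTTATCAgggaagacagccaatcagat
Gfi1b: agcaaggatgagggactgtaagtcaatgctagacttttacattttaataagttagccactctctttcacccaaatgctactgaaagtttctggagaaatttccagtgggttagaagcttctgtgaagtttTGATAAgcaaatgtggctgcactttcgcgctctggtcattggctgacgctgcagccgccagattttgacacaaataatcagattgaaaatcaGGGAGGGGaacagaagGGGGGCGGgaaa
Tal1: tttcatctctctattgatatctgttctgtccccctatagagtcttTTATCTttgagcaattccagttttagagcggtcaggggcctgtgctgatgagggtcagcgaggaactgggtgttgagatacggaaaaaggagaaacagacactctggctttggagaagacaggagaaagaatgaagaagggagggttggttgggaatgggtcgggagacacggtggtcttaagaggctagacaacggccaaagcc
The *Gata1* window held 3 CACCC-type octamers and 0 GATA hexamers, the *Klf1* window 1 GATA hexamer 80 bases before the start and 0 octamers, the *Gfi1b* window 1 GATA hexamer 120 bases before the start and 2 octamers, and the *Tal1* window 1 GATA hexamer 205 bases before the start and 0 octamers. The window of the second *Tal1* start site, which is not printed, held 0 GATA hexamers and 4 octamers. Windows of 250 bases were held for 8 of the 10 factors, at 11 start sites, and not for *Nfe2* and *Lmo2*. A GATA hexamer stood in 4 of these 11 windows, against 26.5% of 32851 mouse windows of the same length, and a CACCC-type octamer in 9 of 11, against 45.9%. An E-box of the kind TAL1 binds, CAGNTG with any base but T at the N, stood in 1 of 11, against 38.1%, and the NFE2-type heptamer TGAGTCA in 0 of 11, against 4.46%. The stretch printed for *Klf1* is shorter, 196 bases, because GENCODE starts the gene earlier, and the *Gata1* window lies between exons of the GENCODE gene. A match of letters is a description and not a binding site.

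*Gata1* (ENSMUSG00000031162; GRCm38 chromosome X, 7959260 to 7978071, minus strand) reached 7.62, 14.9, 12.99, 10.02 and 11.1 CPM in knockout A, B, 14, D and 15. In the 6 wild-type hearts its lowest value was 0.329, its median 1.21 and its highest 1.56 CPM. The lowest knockout heart thus had more *Gata1* mRNA than any wild-type heart. Means were 11.3 ± 2.78 CPM (SD, n = 5) and 1.03 ± 0.553 CPM (SD, n = 6), and the log2 fold change was 3.45 ± 0.34 (SE; edgeR, adjusted p = 3.12e-05). The counts behind these values ran from 12 in a wild-type heart to 630 in a knockout heart, with 2447 in all on the strand of the gene and 58 on the opposite strand. *Gata1* is X-linked, and *Xist* lay at 262.6 to 403.1 CPM in knockout A, knockout 14 and wild-type 8 and at or under 0.199 CPM in the other 8 hearts. With *Xist* as a covariate the log2 fold change of *Gata1* was 3.60. Without the 4 hearts with albumin mRNA it was 3.92 (edgeR, adjusted p = 0.00493), and without these and wild-type 7 it was 5.01 (adjusted p = 0.00218). *Gata1* was among the genes that the study picked from these libraries for RT-qPCR, so that it is not an independent choice.

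*Zfpm1* (chromosome 8, 122282141 to 122337251, plus strand), which encodes the GATA1 cofactor FOG1, had a smaller difference. Its values were 82.7, 106.5, 99.6, 87.0 and 95.3 CPM in knockout A, B, 14, D and 15, and 61.2, 68.2 and 74.2 CPM as the lowest, median and highest wild-type values. The genotypes did not overlap, and the log2 fold change was 0.47 ± 0.07 (SE; edgeR, adjusted p = 7.86e-04). Without the albumin hearts it was 0.46 (adjusted p = 0.0401), and with wild-type 7 left out as well the call was lost at 0.42 (adjusted p = 0.119).

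*Klf1* (ENSMUSG00000054191; chromosome 8, 84901928 to 84905291, plus strand), the activator of adult globin and red cell membrane genes, stood at 11.1, 24.6, 21.3, 14.6 and 16.6 CPM in knockout A, B, 14, D and 15. Wild-type hearts had a lowest value of 0.418, a median of 0.864 and a highest value of 1.70 CPM. The lowest knockout heart, A, was thus above the highest wild-type heart, as for *Gata1*. The means were 17.7 ± 5.36 CPM (SD, n = 5) and 1.02 ± 0.538 CPM (SD, n = 6), and the log2 fold change was 4.10 ± 0.32 (SE; edgeR, adjusted p = 6.60e-06). With 1 heart left out it ranged from 3.94 to 4.31, and it was 4.89 without the albumin hearts and 5.14 without wild-type 7 as well. The study also lists RT-qPCR primers for *Klf1*, which is thus not an independent choice.

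*Tal1* (ENSMUSG00000028717; chromosome 4, 115056426 to 115071755, plus strand), a basic helix-loop-helix factor that endothelial and other blood cells also use, had 46.6, 65.5, 56.4, 47.8 and 49.5 CPM in knockout A, B, 14, D and 15. Wild-type hearts had a lowest value of 18.4, a median of 19.4 and a highest value of 23.1 CPM. Wild-type hearts therefore had a sizeable level of *Tal1* mRNA with little spread, and all knockout hearts were above it. The log2 fold change was 1.41 ± 0.09 (SE; edgeR, adjusted p = 2.32e-06), from 53.1 ± 7.88 CPM (SD, n = 5) against 20.1 ± 1.68 CPM (SD, n = 6). Without the albumin hearts it was 1.40.

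*Lmo2* (chromosome 2, 103957986 to 103981878, plus strand), the LIM-only protein that bridges TAL1 to LDB1, measured 33.1, 40.6, 42.2, 35.8 and 43.1 CPM in knockout A, B, 14, D and 15. The wild-type values had a low of 23.7, a median of 26.6 and a high of 29.5 CPM. The genotypes did not overlap, with a log2 fold change of 0.56 ± 0.08 (SE; edgeR, adjusted p = 4.85e-04). The call was lost without the albumin hearts and wild-type 7, at 0.59 (adjusted p = 0.0618), where 4 knockout and 2 wild-type hearts remained. *Ldb1* (chromosome 19, 46031570 to 46045214, minus strand), the adaptor that brings these factors together, measured 148.9, 140.5, 148.1, 142.2 and 148.4 CPM in the knockout hearts in the same order. Its wild-type values had a low of 138.3, a median of 143.7 and a high of 146.3 CPM. The genotypes overlapped, and the difference on the log2 scale was 0.02, with a 95% confidence interval from -0.06 to 0.10 (edgeR, adjusted p = 0.732). Among *Tal1*, *Lmo2* and *Ldb1*, the difference was thus largest for *Tal1*, smaller for *Lmo2* and not called for *Ldb1*.

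*Gfi1b* (ENSMUSG00000026815; chromosome 2, 28609450 to 28621982, minus strand), a repressor of red cell and megakaryocyte progenitors, was the least abundant factor in wild-type hearts. It had 3.26, 6.21, 6.47, 6.38 and 8.51 CPM in knockout A, B, 14, D and 15, against a wild-type low of 0.0822, a median of 0.242 and a high of 0.648 CPM. The wild-type values rest on 3 to 27 counts per heart and the knockout values on 125 to 309. The log2 fold change was 4.35 ± 0.37 (SE; edgeR, adjusted p = 1.02e-05), the largest of the 10 factors, and ranged from 4.17 to 4.75 with 1 heart left out. It was 5.16 without the albumin hearts and 5.24 without wild-type 7 as well. *Nfe2* (ENSMUSG00000058794; chromosome 15, 103248212 to 103258403, minus strand), the large subunit of a factor of red cells and platelets, had 11.1, 21.9, 16.9, 12.6 and 13.7 CPM in knockout A, B, 14, D and 15. In wild-type hearts its low was 1.44, its median 2.28 and its high 4.56 CPM, in replicate 7. All knockout hearts lay above all wild-type hearts, and the log2 fold change was 2.52 ± 0.29 (SE; edgeR, adjusted p = 1.09e-04). It was 2.75 without wild-type 7, 2.67 without the albumin hearts and 3.44 without both.

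*Bcl11a* (chromosome 11, 24078056 to 24174123, plus strand), the silencer of embryonic globin genes, which is also made outside the blood, was not called. It had 34.0, 30.6, 34.5, 38.4 and 43.8 CPM in knockout A, B, 14, D and 15, and a wild-type low of 28.7, median of 31.7 and high of 36.3 CPM. The genotypes overlapped, with 2 knockout hearts above all wild-type hearts. The difference on the log2 scale was 0.18, with a 95% confidence interval from -0.01 to 0.37 (edgeR, adjusted p = 0.184).

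*Myb* (ENSMUSG00000019982; chromosome 10, 21124935 to 21160984, minus strand), the factor of dividing progenitors, had 3.42, 3.23, 4.23, 3.86 and 4.55 CPM in knockout A, B, 14, D and 15. In wild-type hearts it had 22.9 CPM in replicate 7 and 3.48, 1.70, 2.12, 1.72 and 1.75 CPM in replicates 11, 6, 8, H and E. A single wild-type heart was thus far above all others, and with it the log2 fold change was -0.54 (edgeR, adjusted p = 0.636; 95% confidence interval from -1.96 to 0.88). Without wild-type 7 the direction turned, to 0.84 (adjusted p = 0.0216), and knockout A and B were still below wild-type 11. With the albumin hearts left out as well, the value was 1.02 (adjusted p = 0.0680). The same wild-type heart had 32.6 CPM of *Rag1*, a recombinase of developing lymphocytes, against at most 0.183 CPM in the other 10 hearts, and 22.9 CPM of *Lck*, a kinase of T cells, against at most 2.96 CPM. MYB is a factor of immature thymus cells as well as of red cell progenitors. The part of the thymus transcripts in the value of *Myb* was not tested beyond leaving that heart out.

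**Figure D2:**
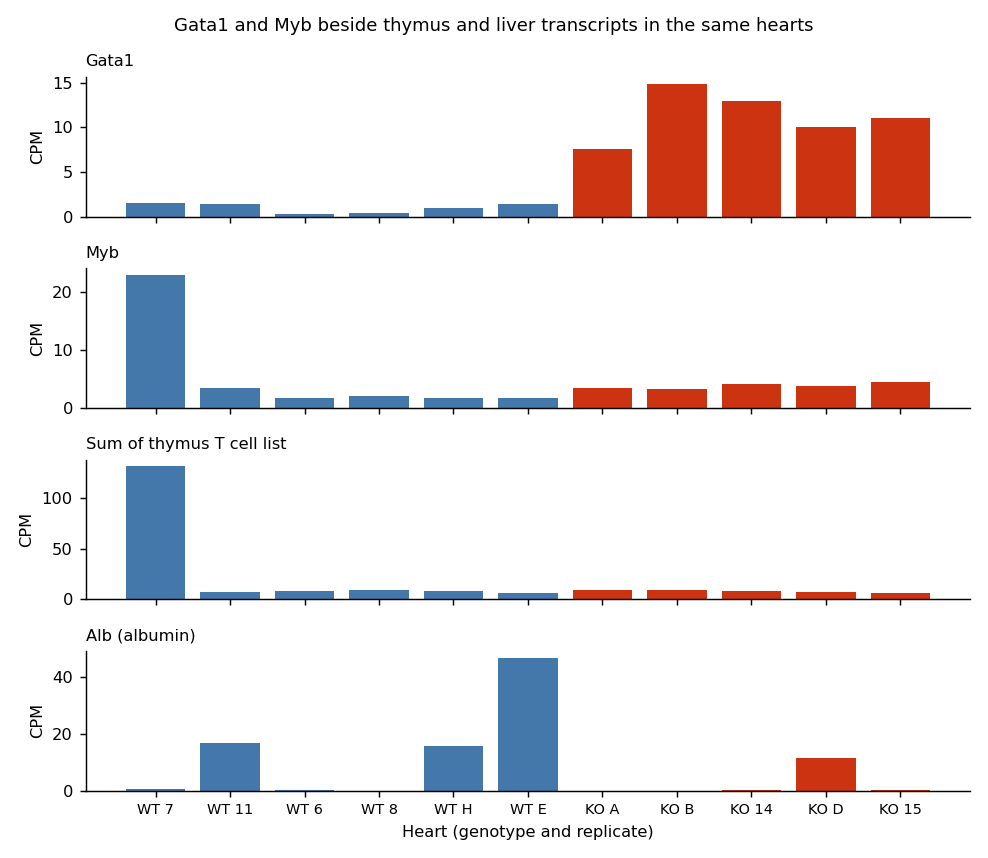
CPM of *Gata1*, of *Myb*, of the summed thymus T cell markers and of albumin (*Alb*) in each heart (bars; wild type blue, knockout red; each panel has its own linear axis from 0). *Myb* and the thymus markers were both highest in wild-type replicate 7, at 22.9 and 130.9 CPM. The knockout hearts with the most *Gata1* mRNA had under 1 CPM of *Alb*, and the part of liver tissue in *Gata1* was not tested beyond leaving hearts out.

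For the order of levels among the factors, CPM were divided by the length of the annotated exons in kb. In wild-type hearts the medians were 31.2 for *Ldb1*, 19.5 for *Zfpm1*, 12.3 for *Lmo2*, 4.44 for *Tal1* and 2.40 CPM per kb for *Bcl11a*, and the ranges of these neighbours over the hearts did not overlap. Below them came *Nfe2* with 0.764, *Klf1* with 0.565, *Gata1* with 0.494, *Myb* with 0.217 and *Gfi1b* with 0.132 CPM per kb, and each of these overlapped its neighbour. In knockout hearts *Ldb1*, *Zfpm1* and *Lmo2* kept the first 3 places at 32.2, 27.2 and 18.7 CPM per kb. *Tal1* with 11.3 and *Klf1* with 10.9 CPM per kb then followed and overlapped, and *Klf1*, *Nfe2* with 4.60, *Gata1* with 4.54 and *Gfi1b* with 3.49 CPM per kb each overlapped the next, down to *Bcl11a* with 2.62 CPM per kb. *Myb* was the last, at 0.432 CPM per kb, and did not overlap *Bcl11a*. The order within a genotype is a description and was not tested.

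Ratios between 2 transcripts of the same heart do not depend on library size. They were computed as log2 of counts plus 0.5, and compared by an exact permutation test over all splits of the hearts, two-sided with the smaller tail doubled, whose smallest p is 0.0043. The Benjamini-Hochberg values are over the 6 ratios compared. GATA2, the factor of earlier progenitors that GATA1 replaces during maturation, is also made by endothelium. The log2 ratio of *Gata1* to *Gata2* was -1.24, -0.33, -0.36, -0.74 and -0.49 in knockout A, B, 14, D and 15, and between -5.62 and -3.19 in wild-type hearts. The means differed by 3.58 (exact permutation test, p = 0.0043, adjusted 0.00866; n = 5 and 6). *Gata2* itself was 17.1 ± 1.25 CPM (SD, n = 5) against 16.4 ± 1.24 CPM (SD, n = 6), a log2 difference of 0.07 with a 95% confidence interval from -0.08 to 0.22 (edgeR, adjusted p = 0.576).

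The log2 ratio of *Bcl11a* to *Klf1* was lower in knockout hearts by 4.03, at 1.08 ± 0.55 against 5.12 ± 0.76 (SD; n = 5 and 6; exact permutation test, p = 0.0043, adjusted 0.00866). The log2 ratio of *Myb* to *Gata1* was -1.52 ± 0.41 in knockout and 1.82 ± 1.30 in wild-type hearts (SD; n = 5 and 6; same exact test, p = 0.0043, adjusted 0.00866). For both ratios the genotypes did not overlap. Both, like *Gata1* to *Gata2*, set a factor called higher against a gene that was not called. Their differences thus largely repeat the fold changes of *Klf1* and *Gata1* and are not separate support. The log2 ratio of *Klf1* to *Gata1* was 0.62 ± 0.09 in knockout hearts (SD, n = 5). In wild-type hearts it was 0.06 ± 0.60 (SD, n = 6) and spread from -0.94 to 0.91 around the knockout values. The wild-type ratios rest on 12 to 60 counts of *Gata1* and 16 to 71 of *Klf1* per heart. The knockout ratios rest on 292 to 630 and 427 to 1044 counts. Low counts widen such a ratio, and their part in the spread was not tested. The means of this ratio differed by 0.56 (exact permutation test, p = 0.039, adjusted 0.0468), and the call was lost in 9 of the 11 comparisons with 1 heart left out, with 0.36 as the lowest difference, without wild-type 7. *Gata1* to *Slc4a1*, the gene of the red cell anion exchanger, had log2 ratios of -5.07 ± 0.13 in knockout and -5.81 ± 0.55 in wild-type hearts (SD; n = 5 and 6), which overlapped (exact permutation test, p = 0.026, adjusted 0.039). This call was lost without knockout A (0.71), B (0.74) or 14 (0.71).

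**Figure D3:**
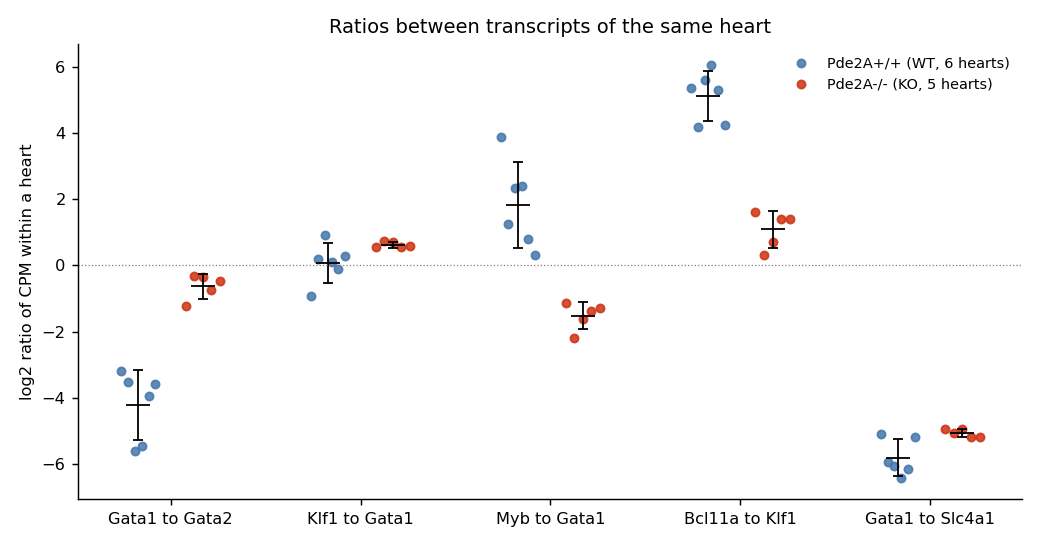
Log2 ratios of counts between transcripts of the same heart, with 6 wild-type hearts in blue, 5 knockout hearts in red and mean ± SD in black. The genotypes stand apart for *Gata1* to *Gata2*, *Myb* to *Gata1* and *Bcl11a* to *Klf1*, and overlap for *Klf1* to *Gata1* and *Gata1* to *Slc4a1*, where the knockout hearts lie closer to each other. Counts of *Gata1* and *Klf1* were lower in wild-type hearts, and their part in the wider spread there was not tested.

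Within the knockout hearts, replicate A had the lowest value of all 7 factors called higher. Replicate B had the highest value of 5 of them, and replicate 15 that of *Gfi1b* and *Lmo2*. The coefficient of variation over knockout hearts was 24.5% for *Gata1*, 30.4% for *Klf1*, 30.4% for *Gfi1b* and 27.9% for *Nfe2*, and 14.8%, 11.1% and 10.1% for *Tal1*, *Lmo2* and *Zfpm1*. In wild-type hearts the first 4 varied by 53.8%, 52.5%, 66.8% and 48.1% and the other 3 by 8.36%, 7.38% and 6.65%. To find genes with a pattern like that of *Gata1*, Pearson's r of log2 CPM centred within each genotype was taken over the 11 hearts for the 14023 genes that averaged 1 CPM or more. Among the factors, r was 0.88 for *Nfe2*, 0.82 for *Klf1*, 0.64 for *Gfi1b*, 0.47 for *Myb*, 0.17 for *Lmo2*, 0.16 for *Bcl11a*, 0.08 for *Tal1*, -0.04 for *Ldb1* and -0.09 for *Zfpm1*. This r pools both genotypes, and *Gata1* had only 12 to 60 counts per wild-type heart. The part of these low counts in r was not tested. Within the knockout hearts alone, *Tal1* and *Zfpm1*, like *Klf1* and *Nfe2*, ranked the hearts in the same order as *Gata1*. The remaining factors did not, and in wild-type hearts no factor kept the order of *Gata1*. Of all genes, r was highest for *Ptgir* (0.95), *1300017J02Rik* (0.93), *Hemgn* (0.93), *Epb42* (0.93) and *Trim12c* (0.92). *Hemgn* and *Epb42* are red cell genes, and *Trim12c* lies on chromosome 7 with *Pde2a*. These are descriptions over hearts that share their libraries.

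Of 19 partners and cofactors of the factors, 6 rose, 1 fell and 12 were not called, beside 8.93% of all genes higher and 5.67% lower. Their median log2 fold change was 0.08, beside -0.02 over all genes. Those that rose include the small MAF proteins, which pair with NFE2, and their other partner BACH1, a heme-sensing repressor. *Maff* had 12.7, 17.1, 36.1, 45.8 and 55.6 CPM in knockout A, B, 14, D and 15, against 10.2 to 13.5 CPM in wild-type hearts, and a log2 fold change of 1.50 ± 0.30 (SE; edgeR, adjusted p = 0.00742). Knockout A thus lay within the wild-type range for *Maff*, while knockout B, the highest heart for *Gata1*, was the next lowest. *Mafg*, *Bach1* and *Mafk* differed by 0.52, 0.55 and 0.48 on the log2 scale, and *Lyl1*, a relative of *Tal1*, by 0.52. The remaining rise was *Ssbp4*, at 0.17, and the fall was *Hdac2*, a deacetylase, at -0.19. The E-protein partners of TAL1 were not called, with log2 fold changes of -0.14 for *Tcf3* and 0.06 for *Tcf12*. The GFI1B cofactors *Kdm1a* and *Rcor1* were not called either, at 0.08 and 0.15. *Runx1* had 0.49 with wild-type 7, whose 7.82 CPM were its highest value (adjusted p = 0.459), and 1.06 without that heart (adjusted p = 0.0143).

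Of 15 other blood factors, 7 rose and 0 fell, beside 8.93% and 5.67% of all genes, with a median of 0.25. They were *E2f2*, a cell cycle factor of late red cell precursors (1.002), *Foxo3* (0.995), *Spi1*, the factor of macrophages and other myeloid cells (0.80), *Sox6*, a partner of BCL11A (0.57), *Stat5b* (0.35), *Zbtb7a*, another silencer of globin genes (0.25), and *Klf3* (0.22). *Spi1* had 6.08 to 7.54 CPM in knockout and 2.99 to 4.89 CPM in wild-type hearts. The megakaryocyte and endothelial factors *Fli1* and *Erg* were not called, at 0.08 and -0.01. *Ikzf1* had 17.4 CPM in wild-type 7 and 2.41 to 4.59 CPM in the other wild-type hearts, against 8.90 to 17.4 CPM in knockout hearts. Its log2 fold change was 1.27 with wild-type 7 (edgeR, adjusted p = 0.0630) and 1.98 without it (adjusted p = 5.41e-05).

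**Figure D4:**
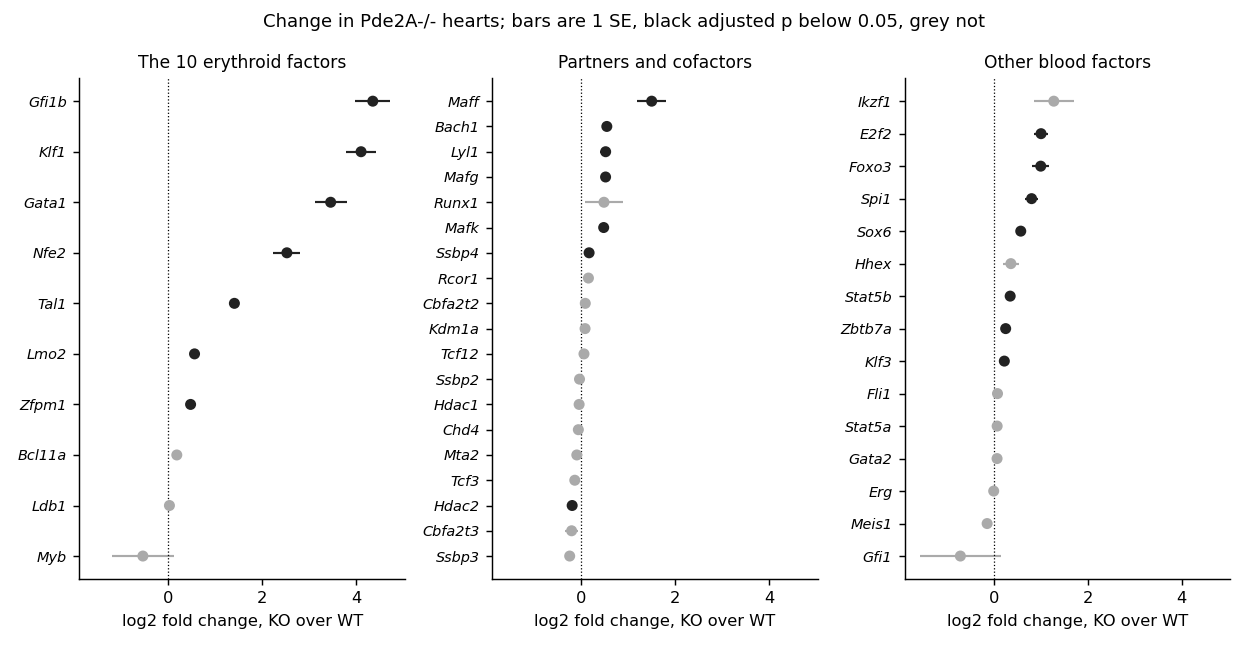
Log2 fold change of knockout over wild type ± 1 SE for the 10 factors (left), 19 partners and cofactors (middle) and 15 other blood factors (right), black where the adjusted p was under 0.05. *Gfi1b*, *Klf1*, *Gata1* and *Nfe2* lie between 2.52 and 4.35, while *Maff*, at 1.50, was the highest of the partners.

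Of 29 red cell genes that were tested of 30 in a list of genes that these factors are known to serve, 23 rose and 1 fell, beside 8.93% and 5.67% of all genes. In 22 of them the rise was at least 2-fold, and the median log2 fold change was 2.02. This list too was written with earlier results of these data known, so that its counts beside all genes are a description. *Pklr*, the red cell pyruvate kinase, had 37.1 ± 9.67 CPM (SD, n = 5) against 1.14 ± 0.984 CPM (SD, n = 6), and *Hemgn*, a nuclear protein of red cell precursors, 47.9 ± 11.5 against 1.54 ± 1.03 CPM. *Epor*, the erythropoietin receptor, which the study also picked for RT-qPCR, had 8.14 to 12.7 CPM against 1.89 to 2.69 CPM, a log2 fold change of 2.29 ± 0.14 (SE; edgeR, adjusted p = 2.25e-06). *Slc4a1* rose by 2.81 on the log2 scale. The list did not move as one, since *Bpgm*, which makes the 2,3-bisphosphoglycerate of red cells, had a log2 fold change of -0.98 (adjusted p = 0.0148) that was not called without the albumin hearts (-0.67, adjusted p = 0.120). *Alas2*, the first enzyme of heme synthesis in red cells, had 89.1 to 158.5 CPM in knockout and 77.0 to 359.6 CPM in wild-type hearts and was not called (-0.60, adjusted p = 0.221). Its difference was -0.13 without the albumin hearts and turned to 0.34 (adjusted p = 0.474) without wild-type 7 as well.

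Of the 7 globin genes, the most abundant red cell transcripts, 0 rose and 1 fell, beside 8.93% and 5.67% of all genes. The fall was that of *Hbb-bt*, with a log2 fold change of -1.43 (edgeR, adjusted p = 0.0105). It was not called without the albumin hearts (-1.004, adjusted p = 0.113). It lies on chromosome 7, as do *Pde2a* and the other *Hbb* genes. The alpha-like globin genes lie on another chromosome. What a place on the chromosome of the allele adds to the *Hbb* values was not tested. A read that maps to several places was not counted, and what this takes from the globin values was not tested either. *Hba-a1* had 852.5, 1305, 1014, 1503 and 1394 CPM in knockout A, B, 14, D and 15, and 820.5 to 3014 CPM in wild-type hearts, with a log2 difference of -0.51 and a 95% confidence interval from -1.13 to 0.11 (adjusted p = 0.253). Without the albumin hearts and wild-type 7 the difference of *Hba-a1* turned to 0.16 (adjusted p = 0.746). Embryonic to adult alpha-like globin, *Hba-x* to *Hba-a1* plus *Hba-a2*, had a log2 ratio of -2.94 ± 0.45 in knockout and -3.69 ± 0.59 in wild-type hearts (SD; n = 5 and 6). The difference of 0.75 missed the threshold (exact permutation test, p = 0.0519), and it passed without knockout B (0.91, exact p = 0.0286), wild-type 6 (0.85) or wild-type 8 (0.90). Without the albumin hearts it was 0.20 (exact p = 0.571), and without wild-type 7 as well 0.08 (exact p = 0.933).

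**Figure D5:**
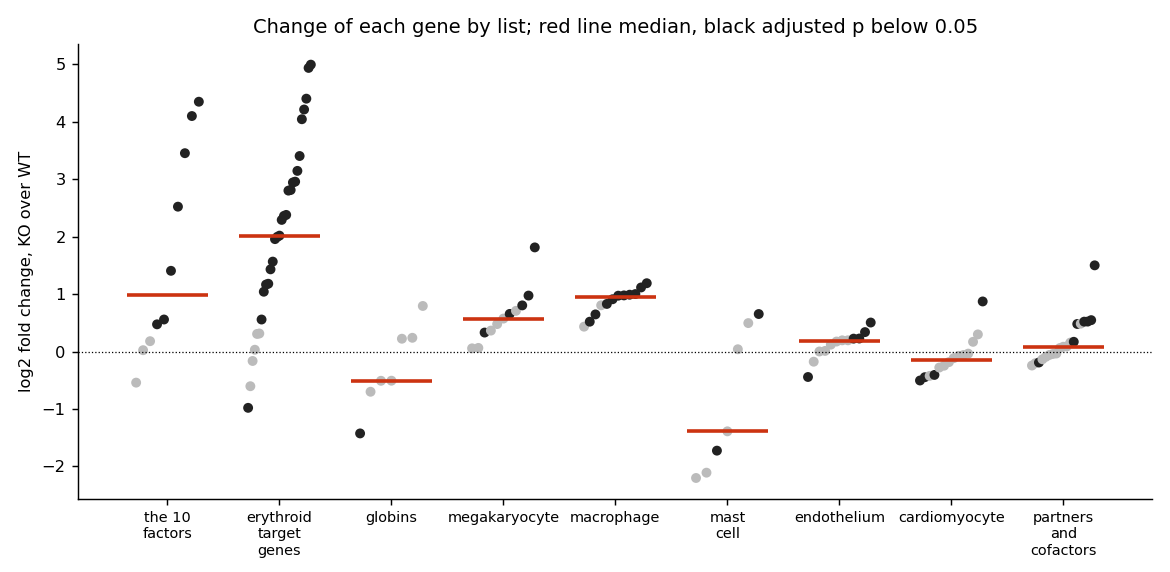
Log2 fold change of knockout over wild type for each tested gene of 9 lists (points; black where the adjusted p was under 0.05), with the median of each list as a red line. The medians are 0.98 for the 10 factors, 2.02 for the red cell genes that they serve, -0.51 for globins and 0.94 for macrophage markers.

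Markers of other cells that use some of the factors were read beside them, and their counts stand beside 8.93% of all genes called higher and 5.67% called lower. Of 11 megakaryocyte markers tested of 12, 5 rose and 0 fell (median 0.57), and their summed level was 149.9 to 236.6 CPM in knockout and 108.7 to 142.5 CPM in wild-type hearts. The defining markers *Itga2b*, *Gp9* and *Gp1ba* were not called, at 0.36, 0.06 and 0.48 on the log2 scale. Of 7 mast cell markers tested of 9, 1 rose, 1 fell and 5 were not called (median -1.39). The rise was *Kit*, the receptor for stem cell factor (0.65), and the fall was *Cpa3*, a protease of mast cells (-1.73). Of 12 macrophage markers, 10 rose and 0 fell (median 0.94), and their summed level was 278.1 to 357.2 CPM in knockout and 150.1 to 223.7 CPM in wild-type hearts. Of 12 endothelial markers, 4 rose and 1 fell (median 0.18), with summed levels of 1422 to 1582 CPM and 1192 to 1422 CPM. *Tal1*, *Lmo2*, *Lyl1* and *Gata2* are also made by endothelium, and the part of these cells in the results was not tested. Of 14 cardiomyocyte markers 1 rose and 3 fell (median -0.15), of 11 thymus T cell markers 0 were called, and of 12 neuron markers 1 rose. Of the 12 hepatocyte markers 1 rose, *Trf*, and 0 fell. In 4 of the 5 knockout hearts *Alb* was at most 0.165 CPM and *Gata1* 7.62 to 14.9 CPM. Knockout D, with 11.5 CPM of *Alb*, had 10.02 CPM of *Gata1*. The wild-type hearts with albumin mRNA, 11, H and E, had 1.47, 0.994 and 1.42 CPM of *Gata1*. Wild-type 6 and 8, with at most 0.0822 CPM of *Alb*, had 0.329 and 0.392 CPM of *Gata1*. Wild-type 7, with 0.678 CPM of *Alb*, had 1.56 CPM of *Gata1*. *Alb* is a hepatocyte marker and does not measure red cells. The part of liver tissue in the *Gata1* values was not tested beyond leaving hearts out.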

How the data were processed

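RNA of 5 *Pde2A-/-* and 6 *Pde2A+/+* hearts was sequenced from stranded poly(A) libraries with single-end reads. The authors mapped reads to GRCm38 (mm10) with STAR and deposited its whole-number count per gene for each strand, without normalization; a read on several genes or places is not counted. Between 19.6% and 22.4% of reads lay on no single gene. The count column for the strand of the gene was used. GENCODE M21 named 55227 of 55487 identifiers.

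Genes with at least 10 counts over all hearts were tested with edgeR 4.0.16 (TMM, quasi-likelihood, R 4.3.3). The spread between hearts was 16.8% (common biological coefficient of variation). In simulated data of 23661 genes for knockout against wild type, edgeR recovered 93 of 100 genes changed by 1 and 98 of 100 changed by 2 on the log2 scale, with 10 wrong calls. The changed genes were drawn from those with a mean of at least 1 CPM, and no heart was made to stand apart. The recovery thus does not describe genes below that mean or a gene with 1 heart far from its group, such as *Myb*.

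All members were named, and of each list up to 4 genes with the largest fold change at a mean of at least 1 CPM, besides *Gata2*, *Epor*, *Runx1*, globins, *Pde2a*, *Xist* and the 5 genes most like *Gata1*; further genes were named after their values were seen. The members and lists were chosen with earlier results of these data known. Alternatives were DESeq2 1.42.0, its size factors, filterByExpr, no filter, both strands, no globins, a 2-fold limit, *Xist* or naming style as covariate, another pseudocount and each heart left out. The settings without hearts with albumin, and without those and wild-type 7, were chosen after seeing the data. Ratios were tested with scipy 1.17.1. The single result of 1 listed gene is not reported here, and the counts of its list include it.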

Additional observations from a re-analysis of the deposited data

Results flagged for a closer look

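For the 10 factors, 6 other genes and 6 ratios, each in both genotypes, 1 heart lay far from its group in 3 of 44 groups by Dixon's test, which chance alone would flag in about 1 of 20 groups. All 3 were wild-type replicate 7. *Myb* was 22.9 CPM there and 1.70 to 3.48 CPM in the other 5 wild-type hearts. *Ikzf1*, a factor of lymphocytes, was 17.4 CPM against 2.41 to 4.59 CPM, and *Runx1*, a factor of blood stem cells and T cells, was 7.82 CPM against 1.32 to 2.93 CPM. The summed thymus T cell markers of that heart were 130.9 CPM, and their part in these values was not tested beyond leaving it out.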

How the results depend on the processing

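Between 7 and 8 factors were higher under each alternative on the adjusted p alone and with each heart left out, 8 only without wild-type 7 (*Myb*). With the 2-fold limit 5 were higher. Without the albumin hearts the count was 7, and without these and wild-type 7 it was 5. Of 209 results of the members under alternatives, 204 kept direction and side of the threshold. *Lmo2* and *Zfpm1* lost the call without the albumin hearts and wild-type 7. The log2 fold change of *Myb* turned to 0.030 with the naming style as a covariate, to 0.84 without wild-type 7 and to 1.02 without the albumin hearts as well. In that last setting those of *Hba-a1* (0.16), *Hba-a2* (0.047), *Hbb-bs* (0.43), *Alas2* (0.34), *Gfi1* (1.29), *Rag1* (0.77), *Lck* (0.33) and *Alb* (0.51) also turned; *Hba-x* (-0.030) and *Hbb-y* (-0.064) did without the albumin hearts, and *Hdc* (-0.040) with the naming style. With each heart left out in turn, the range passed 0 for *Myb* (-0.73 to 0.84), *Lck* (-1.18 to 0.50), *Rag1* (-7.25 to 0.73), *Gfi1* (-0.97 to 1.06), *Hdc* (-0.046 to 0.13) and *Nefl* (-0.0064 to 0.40). Over all genes, DESeq2 gave 2354 lower calls (2160 higher and 1372 lower in the edgeR fit), a 2-fold limit 535 higher and 90 lower, the setting without the albumin hearts 482 and 50, and that without wild-type 7 as well 353 and 29; fewer hearts were then compared. Leaving out each heart gave 1288 to 2887 higher and 414 to 2165 lower. Without the albumin hearts, and then without wild-type 7 as well, the differences of the log2 ratios were 4.15 and 4.93 for *Gata1* to *Gata2*, 0.62 and 0.14 for *Klf1* to *Gata1*, -4.42 and -3.92 for *Myb* to *Gata1*, -4.67 and -4.82 for *Bcl11a* to *Klf1*, and 0.82 and 1.21 for *Gata1* to *Slc4a1* (0.20 and 0.08 for *Hba-x* to *Hba-a1* plus *Hba-a2*), where the exact test can reach no p under 0.0571 and 0.133, so that no call was possible. With each heart left out they were 3.30 to 3.79, 0.36 to 0.73, -3.64 to -2.93, -4.22 to -3.84 and 0.62 to 0.89, and 0.60 to 0.91 for *Hba-x* to *Hba-a1* plus *Hba-a2*. The cause of these changes was not tested. No paired analysis was possible because the replicate names of the genotypes are not shared. DESeq2 gave no adjusted p for *Myb*, *Ikzf1* and *Lck*. Low counts limit *Gfi1b* most, with 3 to 27 per wild-type heart. Litters are not stated. With *Xist* as a covariate 7 factors were higher.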
